A study of Mus musculus with 4 samples.

Results

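The genes described here are 10 secreted or surface signals of inflammation, 10 of the 32285 genes counted in each library, taken as a list of names. They are the neutrophil-attracting chemokines Cxcl1 and Cxcl2, the homeostatic chemokines Cxcl12 and Cxcl14, the monocyte-attracting chemokines Ccl2 and Ccl7, the cytokines Il1b and Il6, the macrophage growth factor Csf1, and Icam1. The last of these encodes an adhesion molecule of the cell surface that leukocytes bind through integrins, and is itself neither a chemokine nor a cytokine. All 10 had unique molecular identifiers (UMIs, each standing for 1 captured transcript) in all 4 libraries, from 2917 UMIs in all for Il6 to 87841 for Cxcl1.

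The libraries are single-cell 3′ transcriptomes of whole ovaries of 8-week-old female mice. Mice of the same litter were compared, Fosl2F/F mice, which carry loxP-flanked Fosl2 alleles and no Cre (and are called control or WT in the labels), and Fosl2cKO mice, which carry the same alleles with Cyp19a1-Cre, with 2 libraries each. Both groups therefore share the floxed alleles, and the Cre was from C57BL/6J mice. Fosl2 encodes a subunit of the AP-1 transcription factor, and the promoter of Cyp19a1, the aromatase gene, drives the Cre in granulosa cells (GCs), from which luteal cells largely arise. Recombination itself was not measured here.

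After filtering, 8150 and 19575 cells remained in Fosl2F/F libraries 1 and 2 and 6760 and 7053 in Fosl2cKO libraries 1 and 2, with 104462668 to 111365033 UMIs per library. Fosl2F/F library 2 stood apart in depth, with a median of 3654 UMIs per cell against 11187 to 12479 in the others. Any pair of libraries shared 10 to 38 cell barcodes. Levels are given in counts per 1000000 UMIs (CPM). In GC-like cells Fosl2 itself, after scaling the CPM by trimmed mean of M-values (TMM), measured 167 and 164 CPM in Fosl2F/F against 163 and 115 CPM in Fosl2cKO. Its log2 fold change was -0.25 (SE 0.21, edgeR adjusted p = 0.9996), which did not pass, and the higher Fosl2cKO library lay close to the Fosl2F/F libraries. The study's drawing of the allele places the loxP sites around exons 2 and 4, and whether the counted 3′ end lies within the deleted part is not given in the sources used here. By immunoblot, the study reports that Fosl2 protein was depleted in GCs of Fosl2cKO mice, a measure of protein and not of these libraries. Genotypes below are those of the labels, and "Fosl2cKO" stands for the libraries labelled so.

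Chemokines are small secreted proteins that guide leukocytes along a gradient through receptors of the G protein-coupled family, while interleukins and colony-stimulating factors change the activity, number or survival of the cells that bind them. In the ovary, leukocytes enter the follicle wall and the corpus luteum around ovulation and luteal regression, and granulosa, theca, stromal and vascular cells as well as resident macrophages are known to make such signals. Cxcl1, Cxcl2, Il6 and Icam1 are textbook targets of NF-kB, the transcription factor that inflammatory cytokines switch on.

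Sequence windows are shown because several of these genes share that response element near their start. Cxcl1 (5:90891241-90893115) and Cxcl2 (5:90903871-90905938) are neighbours on the plus strand of mouse chromosome 5, and Ccl2 (11:82035571-82037453) and Ccl7 (11:82045712-82047525) are neighbours on chromosome 11 (GRCm38). RefSeq promoters (250 bases before to 50 bases after a gene's start, GRCm38.p6) were held for 8 of the 10 genes, and Ccl2 and Ccl7 had no entry. The NF-kB motif (GGG, any 2 letters, TT, any letter, then CC), searched on both strands, was in the promoters of 4 of these 8 genes, against 5.48% of 27025 genes, and the AP-1 letters TGANTCA in that of 1, Il6, against 8.97%. No match of one motif overlapped a match of the other. In the 30-base windows below, written on the gene's strand, capitals mark the match.
Cxcl1, 5:90891146-90891175: ccggttgcagGGAAACACCCtgtactccgg
Cxcl1, 5:90891164-90891193: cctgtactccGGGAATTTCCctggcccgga
Cxcl2, 5:90903792-90903821: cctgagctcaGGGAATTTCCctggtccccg
Cxcl2, 5:90903811-90903840: cctggtccccGGGCTTTTCCagacatcgtg
Il6, 5:30013060-30013089: tatcaaatgtGGGATTTTCCcatgagtctc
Csf1, 3:107760604-107760633, minus strand: gggccttgagGGAAAGTCCCtaggggccag
Il6, AP-1, 5:30012864-30012893: cTGAGTCActtttaaagaaaaaaaagaaga
Counted from the start of RefSeq's transcript, which differs from the gene start given above, the first matches of Cxcl1 and Cxcl2 began 89 and 97 bases before it, and the NF-kB match of Il6 44 bases before it. A match of letters is a description of the sequence, and binding at these places was not measured here.

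Cells were sorted into classes by clustering without these 10 genes, and a cluster was called by a cell type only where fixed marker genes placed it. Of the markers of a class, those highest in that class were 7 of 10 for GC-like, 6 of 9 for stromal-like, 5 of 7 for luteal-like, 9 of 9 for macrophage-like, 7 of 8 for dendritic-like, 9 of 9 for NK or T-like, 7 of 9 for endothelial-like and 4 of 8 for pericyte or smooth muscle cell (SMC)-like cells. Theca-like cells had 2 of 7, the lowest share, so their name is the least certain. That class joined a cluster led by Cyp17a1 (1512 cells) and one led by Enpep and Hhip (787 cells). Large clusters that stayed unnamed are called by leading genes, the Asb4/Enpep cluster (4156 cells), the Abcb1b/Hao2 cluster (3708 cells) and the Myh11/Ogn cluster (1163 cells). Levels below are CPM, the UMIs of a gene relative to those of all genes, taken over all cells of a class within 1 library, and stand in the order Fosl2F/F library 1, Fosl2F/F library 2, Fosl2cKO library 1, Fosl2cKO library 2. Means ± SD are over the 4 libraries. Classes are called apart only where their 4 values do not overlap, and since 3′ counts depend on each gene's end, levels are compared between classes and never between genes. Of 16 classes, the 15 with at least 20 cells in every library were put in order.

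**Figure D1:**
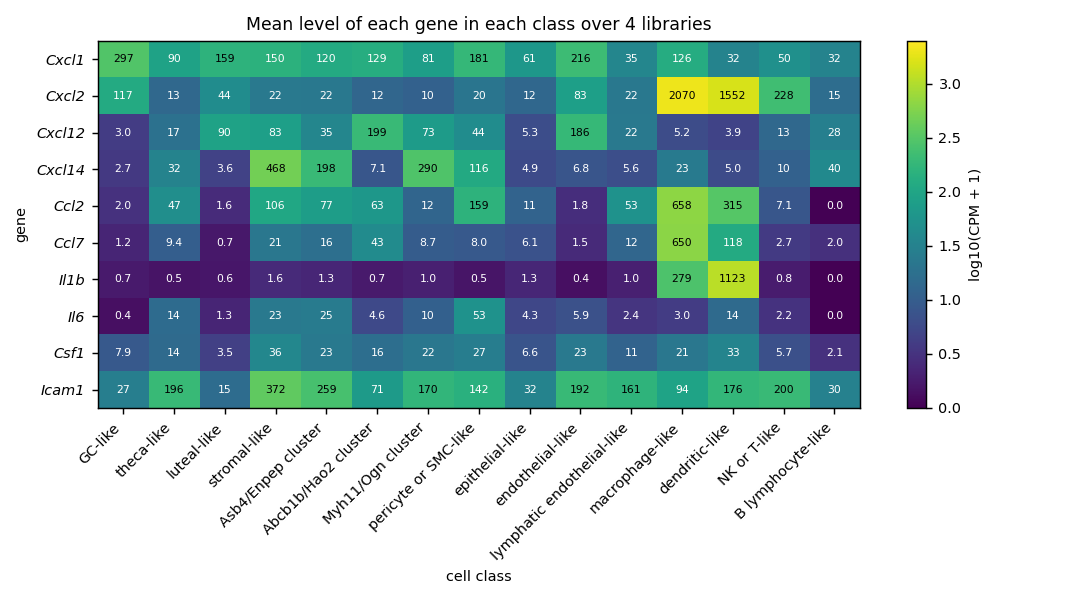
Mean level of each gene (rows) in 15 cell classes (columns), as CPM over 4 libraries, coloured on a log10 scale. Il1b stands at 1123 and 279 CPM in dendritic-like and macrophage-like cells and at no more than 1.55 in any other class, while Cxcl1 and Icam1 spread over most classes.

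Cxcl1, which attracts neutrophils through Cxcr2, was mainly a granulosa transcript. In GC-like cells it measured 239, 316, 383 and 249 CPM, and these cells held 69.1% ± 8.1 (SD, n = 4) of all Cxcl1 UMIs while holding 48.5% of UMIs of all genes. Endothelial-like cells came next at 167, 211, 263 and 222 CPM, lower than GC-like cells in each of the 4 libraries although the ranges overlapped. Pericyte or SMC-like cells (108 to 306 CPM), luteal-like cells (89.5 to 232) and stromal-like cells (76.5 to 209) followed with ranges that overlapped that of endothelial-like cells, whereas theca-like (66.0 to 139 CPM), NK or T-like (40.1 to 68.6 CPM) and dendritic-like cells (18.1 to 46.0 CPM) lay wholly below it. After thinning each cell to 2000 UMIs, 31.4% of GC-like cells had a Cxcl1 UMI (26.5 to 40.4% by library, 45.3 to 72.8% unthinned). NK or T-like cells, which should lack the gene, had 7.67% (2.81 to 15.8%), with median depths of 1364 to 3455 UMIs against 4588 to 19209 in GC-like cells. Thinning left out 1.76 to 8.6% of GC-like cells and up to 84.8% of NK or T-like cells (in Fosl2F/F library 2).

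Among granulosa subclusters, named from their own markers, Cxcl1 was lowest in cumulus-like cells. The place of cells in the follicle was not measured. Mural-like cells, the layer lining the follicle wall, had 246, 493, 610 and 205 CPM of Cxcl1, and mitotic-antral-like cells 402, 567, 468 and 443 CPM. Cumulus-like cells, the layer around the oocyte, had 47.4, 46.6, 61.6 and 62.3 CPM and lay below every other GC subcluster in every library. Atretic-like cells, the class of regressing follicles, reached 142 to 432 CPM, overlapping mural-like cells.

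Cxcl2, the neighbouring gene with the same receptor, combined a high level in phagocytes with a large share in GCs. Macrophage-like cells measured 1565, 2741, 2075 and 1901 CPM and dendritic-like cells 3041, 926, 977 and 1263 CPM. These classes overlapped each other and lay above all others, dendritic-like cells 6.81 times above NK or T-like cells (306, 203, 72 and 331 CPM), the next in order. GC-like cells had only 98.6, 149, 158 and 63.6 CPM, yet by their number they held 46.0% of all Cxcl2 UMIs against 31.5% in macrophage-like cells. The subclusters repeated the split of Cxcl1, with 130, 399, 346 and 149 CPM in mural-like cells and 9.8, 16.1, 22.0 and 14.6 CPM in cumulus-like cells. A Cxcl2 UMI was found in 56.7% of thinned macrophage-like cells, 27.2% of dendritic-like cells, 13.9% of GC-like cells and 6.67% of NK or T-like cells. The last of these shares lay below that of GC-like cells while the CPM lay above it in 3 of 4 libraries, so those 2 classes were not put in order.

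A Cxcl2 UMI was more frequent in cells with a Cxcl1 UMI than in cells without one. Among thinned GC-like cells, 27.5% of those with a Cxcl1 UMI also had a Cxcl2 UMI, against 7.62% of those without, and among macrophage-like cells the shares were 84.7% and 52.6%, in the same direction in 4 of 4 libraries each. In mural-like cells they were 35.9% and 18.5%. Icam1 went along with Cxcl1 too, since 54.8% of GC-like cells with an Icam1 UMI had Cxcl1 against 30.4% of the others. The pairing of Cxcl1 with Cxcl2 was not seen in pericyte or SMC-like cells (2.96% against 3.16%, higher in 1 of 4 libraries), theca-like cells (2.18% against 1.96%, 2 of 4) or the Myh11/Ogn cluster (2.25% against 1.39%, 1 of 4). These are descriptions of cells from the same libraries and carry no test.

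**Figure D2:**
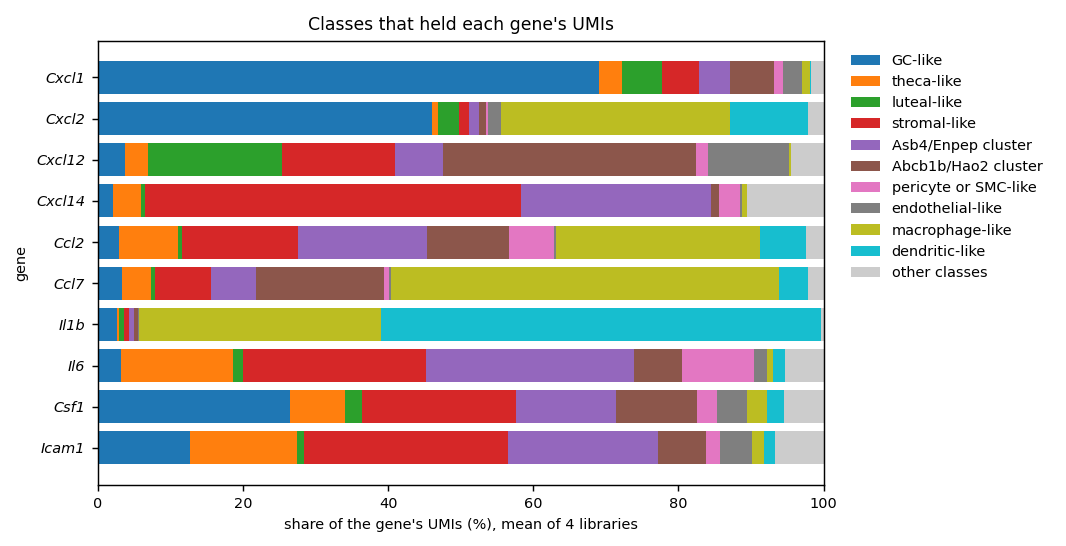
Share of each gene's UMIs (horizontal axis, %, mean of 4 libraries) held by each class, shown as stacked bars. GC-like cells held 69.1% of Cxcl1 and 46.0% of Cxcl2, macrophage-like cells 53.6% of Ccl7, and dendritic-like cells 60.5% of Il1b, while Il6, Csf1 and Icam1 were divided among several classes, with 3.17% of Il6 in GC-like cells. The dendritic-like share of Il1b was 53.3% without 64 cells of that class led by S100a9.

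Cxcl12 and Cxcl14 are chemokines made without an inflammatory stimulus, Cxcl12 being the ligand of Cxcr4 that retains leukocytes and progenitors in tissues. Cxcl12 had 2 main places. Endothelial-like cells measured 249, 173, 128 and 195 CPM, and the Abcb1b/Hao2 cluster, whose leading genes include the cholesterol carrier Star, measured 514, 62.5, 101 and 120 CPM. In that cluster Fosl2F/F library 1 lay far above the other 3 libraries, and the cluster's share of Cxcl12 UMIs was 60.0% there against 19.1% in Fosl2F/F library 2 (34.8% ± 18.1 over all 4). Luteal-like cells (26.0, 61.0, 94.8 and 179 CPM) and stromal-like cells (96.7, 58.2, 118 and 58.9 CPM) followed with overlapping ranges. After thinning, 22.9% of endothelial-like cells had a Cxcl12 UMI against 1.46% of NK or T-like cells.

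Cxcl14 was stromal. Stromal-like cells measured 385, 421, 210 and 857 CPM and held 51.8% ± 13.7 of its UMIs, and the Asb4/Enpep cluster held a further 26.2% at 150, 154, 278 and 211 CPM. The Myh11/Ogn cluster, led by smooth muscle genes, had 224, 303, 311 and 322 CPM. Stromal-like cells were not apart from either, since Fosl2cKO library 1 was low and Fosl2cKO library 2 high. GC-like cells were at 1.44 to 4.79 CPM. The genes with the profile most like that of Cxcl14 over the 15 classes were Tcf21, Lum and Col1a1, markers of stroma (Pearson r = 0.971, 0.959 and 0.953 of mean log2(CPM + 1)).

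**Figure D3:**
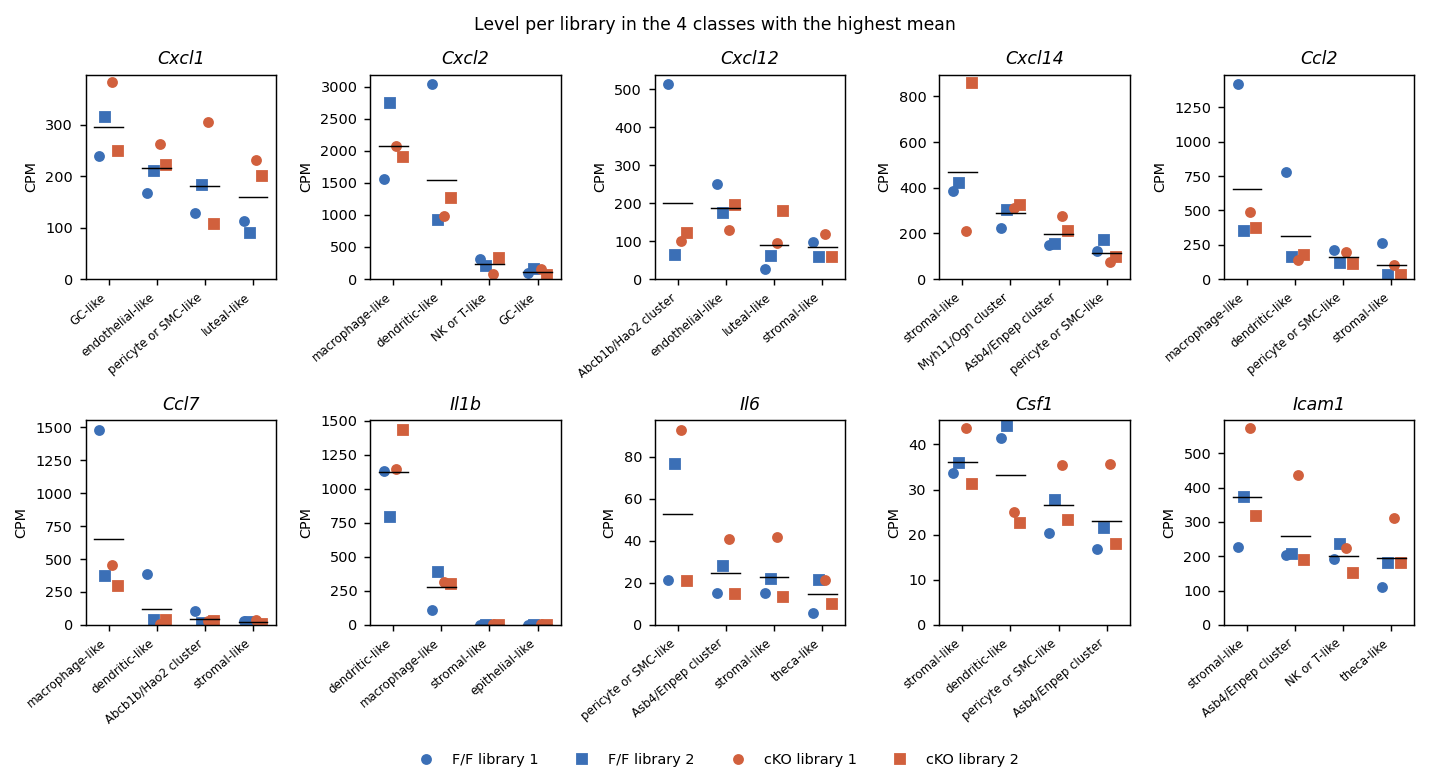
Level of each gene (vertical axis, CPM) in the 4 classes with its highest mean, with 1 point per library (blue, Fosl2F/F, orange, Fosl2cKO, circles for library 1 and squares for library 2) and a line at the mean. The single high point of Cxcl12 in the Abcb1b/Hao2 cluster, 514 CPM, and those of Ccl2 and Ccl7 in macrophage-like cells, 1420 and 1480 CPM, all belong to Fosl2F/F library 1.

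Ccl2 and Ccl7 recruit monocytes through Ccr2. Macrophage-like cells were the highest class for both, at 1420, 350, 488 and 372 CPM of Ccl2 and 1480, 368, 456 and 297 CPM of Ccl7. Here Fosl2F/F library 1 stood far above the other 3 libraries, which lay between 297 and 488 CPM. The genes differed in how many other classes took part. Macrophage-like cells held 53.6% ± 4.0 of Ccl7 UMIs but only 28.2% ± 2.9 of Ccl2, for which the Asb4/Enpep cluster (17.7%) and stromal-like cells (16.0%) were further sources. Dendritic-like cells came second for both, at 781, 158, 142 and 178 CPM of Ccl2 and 389, 39.1, 8.6 and 33.2 CPM of Ccl7, again highest in Fosl2F/F library 1. Pericyte or SMC-like cells measured 215, 115, 200 and 106 CPM of Ccl2 and stromal-like cells 262, 30.1, 103 and 28.1 CPM. The share of thinned cells with a UMI was 37.4% for Ccl2 and 29.7% for Ccl7 in macrophage-like cells, and 0.442% and 0.0883% in NK or T-like cells.

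Within the whole library, without regard to class, Ccl2 measured 54.5, 20.8, 51.7 and 19.5 CPM and Ccl7 30.1, 11.2, 23.7 and 8.78 CPM. Both libraries numbered 1 were high and both numbered 2 low, across the genotypes. The labels do not say what a shared number stands for, and the part of a shared preparation was not tested. In single cells the neighbouring genes again went together. Of macrophage-like cells with a Ccl2 UMI, 53.9% had Ccl7 against 14.1% of those without. In the Abcb1b/Hao2 cluster the shares were 21.1% and 2.81%, and in stromal-like cells 8.93% and 1.38%, each higher in 4 of 4 libraries.

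Il1b, the inducible interleukin of activated myeloid cells, was the most restricted of the 10. Dendritic-like cells measured 1127, 792, 1143 and 1431 CPM and macrophage-like cells 112, 391, 312 and 303 CPM, and the first lay 4.02 times above the second without overlap. Every other class ordered was at a mean of 1.55 CPM or less, so macrophage-like cells lay 180 times above the next class. Together the myeloid classes held 60.5% ± 17.7 and 33.4% of Il1b UMIs. In thinned cells the shares with a UMI were 45% and 20.5%, against 0.15% in pericyte or SMC-like cells, which should lack the gene. Mefv, Chil3 and Adgre4 had the profiles most like it (r = 0.995 each over 15 classes).

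The dendritic-like class was not uniform, and clustering its cells again with the macrophage-like cells set off 64 cells led by S100a9, S100a8, G0s2 and Retnlg, genes of granulocytes. All lay in the dendritic-like class, 33, 7, 11 and 13 by library, and they kept no cell type name because the neutrophil and mast cell marker scores were equal, the second through Hdc. The granulocyte gene Ly6g was at 0 in all myeloid subclusters. Their depth was low, at medians of 1158 to 1822 UMIs. Cxcl2 reached 32690, 18578, 21273 and 25171 CPM in them and Il1b 8053, 4335, 13974 and 13234 CPM. They also had the highest Cxcr2 of the myeloid subclusters, at 321 CPM, and 3578 CPM of Il1r2, the decoy receptor of interleukin 1. Ccl7 had 0 UMIs in every library, which with a floor of 3 counts allows levels of up to 47.8 to 372 CPM. Without these cells dendritic-like cells still measured 588, 745, 928 and 1044 CPM of Il1b, a mean of 826 CPM against 1123 with them. For Cxcl2 they fell from a mean of 1552 to 635 CPM (734, 690, 637 and 479), below macrophage-like cells in all 4 libraries without overlap. Of the Il1b UMIs in the cells left, dendritic-like cells then held 53.3% ± 12.9 and macrophage-like cells 39.0% ± 13.8.

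The other myeloid subclusters divided the genes between them. A dendritic-like subcluster led by Cd209a and Ccr7 had 804, 1071, 1539 and 1712 CPM of Il1b, and one led by Chil3 and Ly6c2, genes of classical monocytes, had 377, 983, 1274 and 1307 CPM. A subcluster led by Xcr1 and Clec9a, markers of cross-presenting dendritic cells, had 40.8, 180, 346 and 209 CPM. Ccl7 was highest in subclusters led by Spp1 and Arg1 (3122, 82.7, 857 and 366 CPM) and by Mmp13 with Mrc1 and complement C1q (1250, 589, 1342 and 554 CPM). Il1b was nearly missing from a Gpnmb-led subcluster, at 14.1, 26.3, 35.6 and 47.8 CPM.

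Il6 acts on cells that carry Il6ra or its soluble form together with Il6st. It was the scarcest of the genes by UMIs and came from mesenchymal classes rather than leukocytes. Pericyte or SMC-like cells measured 21.4, 76.5, 92.8 and 20.7 CPM, above the Asb4/Enpep cluster (15.1, 28.2, 40.6 and 14.5 CPM) in every library though with overlapping ranges. The Asb4/Enpep cluster held 28.6% ± 2.1 of its UMIs, stromal-like cells 25.2% and theca-like cells 15.5%. Within the theca-like class, Il6 was at 1.1, 7.71, 14.6 and 3.19 CPM in the Cyp17a1-led cluster. In the Enpep/Hhip-led cluster it was at 17.1, 40.9, 34.0 and 20.4 CPM. Dendritic-like cells had 4.6 to 24.4 CPM. After thinning, 5.76% of pericyte or SMC-like cells had a UMI against 0.395% of NK or T-like cells.

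Csf1, the growth factor of macrophages, was low and widely spread. Stromal-like cells led at 33.6, 35.9, 43.6 and 31.1 CPM, not apart from pericyte or SMC-like cells (20.4 to 35.4 CPM) or from dendritic-like cells (a mean of 33.2 CPM). Without the S100a9-led cells dendritic-like cells had a mean of 12.9 CPM (9.91, 14.9, 20.1 and 6.87) and lay wholly below stromal-like cells. GC-like cells held 26.4% of its UMIs and stromal-like cells 21.2%. Its receptor Csf1r lay at the other end, at 296 CPM in macrophage-like cells (242 to 363) and 66.5 CPM in dendritic-like cells.

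Icam1 was highest in stroma. Stromal-like cells measured 226, 372, 573 and 319 CPM and held 28.1% ± 3.8 of its UMIs, and the Asb4/Enpep cluster measured 204, 207, 436 and 190 CPM and held 20.7%. NK or T-like cells (151 to 237 CPM), theca-like cells (110, 181, 312 and 182 CPM) and endothelial-like cells (155, 155, 309 and 150 CPM) were not apart from one another. Fosl2cKO library 1 was the highest in each of the last 2 and in stromal-like cells. GC-like cells had a mean of 27.2 CPM and held 12.7% by their number. The lowest share of thinned cells with a UMI was 2.41%, in luteal-like cells, against 36.2% in stromal-like cells.

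The receptors of these signals were spread over leukocyte, endothelial and mesenchymal classes. Ccr2, the receptor of Ccl2 and Ccl7, was highest in dendritic-like cells at 316 CPM, then in NK or T-like cells (151 CPM) and macrophage-like cells (139 CPM). Cxcr2, the receptor of Cxcl1 and Cxcl2, had 35 UMIs in dendritic-like cells, 34 of them in the S100a9-led cells, and 42 UMIs in all GC-like cells together. Cxcr4 was highest in B lymphocyte-like cells (128 CPM), and Ackr3, the scavenging receptor of Cxcl12, in lymphatic endothelial-like (161 CPM) and endothelial-like cells (136 CPM). The ligand was at 128 to 249 CPM in endothelial-like cells. In lymphatic endothelial-like cells it was at 14.4 to 29.0 CPM, overlapping NK or T-like cells (4.01 to 28.9 CPM). Il1r1, the signalling receptor of interleukin 1, was highest in NK or T-like cells (122 CPM), pericyte or SMC-like cells (98.6 CPM) and stromal-like cells (82.1 CPM), none of which had over 1.55 CPM of Il1b. The decoy Il1r2 was at 288 CPM in dendritic-like cells, 64 of which were the S100a9-led cells. Il6ra was highest in dendritic-like cells at 91.3 CPM, whereas Il6st reached 153 CPM in the Asb4/Enpep cluster. The integrin genes Itgal, Itgam and Itgb2, partners of Icam1, were highest in NK or T-like (187 CPM), dendritic-like (122 CPM) and macrophage-like cells (155 CPM). Of 29 further chemokines measured, Ccl21a of lymphatic endothelial-like cells (8529 CPM), Ccl5 of NK or T-like cells (3733 CPM) and Ccl4 of macrophage-like cells (1859 CPM) had the highest class levels.

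Fosl2cKO was compared with Fosl2F/F within 9 classes, by summing the UMIs of a class in each library and fitting all genes by the quasi-likelihood test of edgeR, 2 libraries against 2. Passing meant a log2 fold change over 0.25 in size together with an adjusted p below 0.1. The labels do not tie libraries to animals, so p-values measure the spread between these libraries, which may be technical. In GC-like cells, the class the Cre is meant for, 0 of 10 genes passed, where 0.00579% of all genes tested did. None of the 10 reached an unadjusted p under 0.05, and DESeq2 called none. Without Fosl2cKO library 2, Icam1 passed with a log2 fold change of 1.19. Cxcl1 measured 248 and 310 CPM (after TMM scaling, as are the values beside each fold change below, while sums over lists and values within clusters are not scaled) in Fosl2F/F and 374 and 251 in Fosl2cKO, a log2 fold change of 0.16 (SE 0.24, adjusted p = 0.9996). Cxcl2 measured 102 and 146 against 154 and 64.1 CPM, a log2 fold change of -0.19 (SE 0.40). The genotypes overlapped for both (31.6% of all genes in GC-like and 31.9% in mural-like cells did not overlap), since Fosl2cKO library 1 was the highest and library 2 among the lowest. Icam1 (12.5 and 30.4 against 48.7 and 15.9 CPM, log2 fold change 0.59, SE 0.59) and Csf1 (3.42 and 9.26 against 14.2 and 4.18 CPM, 0.55, SE 0.65) were also highest in Fosl2cKO library 1 and second in Fosl2F/F library 2. The summed level of 10 NF-kB response genes in GC-like cells, 1315 and 1550 against 1841 and 1260 CPM, was likewise highest in Fosl2cKO library 1, and its part in these values was not tested. In mural-like cells 0 of 6 genes tested passed (0.0257% of all genes), with none at an unadjusted p under 0.05 and none called by DESeq2. Csf1 and Icam1 there each had a log2 fold change of 0.90. Without Fosl2cKO library 2 these were 1.64 and 1.51, but without Fosl2cKO library 1 they were -2.06 and -0.43. They rest on 52, 28, 112 and 3 UMIs of Csf1 and 225, 88, 389 and 34 of Icam1 by library.

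In stromal-like cells 0 of 10 genes passed (0.199% of all genes), in theca-like cells 0 of 9 (0.103%), in endothelial-like cells 0 of 7 (0.177%), in pericyte or SMC-like cells 0 of 9 (0%) and in epithelial-like cells 0 of 7 (0.123%). DESeq2 called none in these 5 classes. Some log2 fold changes hung on 1 library. Stromal-like Ccl2 and Ccl7 were at -2.45 and -2.90 without Fosl2cKO library 1, but at -0.52 and 0.51 without Fosl2cKO library 2. Stromal-like Il6 was at 1.18 without Fosl2cKO library 2, but at -0.52 without Fosl2cKO library 1. Theca-like Ccl2 was at 1.13 with all libraries, at 1.93 without Fosl2cKO library 2 and at -0.64 without Fosl2cKO library 1. Its lowest value over the other settings was -0.18. Before scaling, Ccl2 was at 3.85 and 8.13 against 35.2 and 4.64 CPM in the Cyp17a1-led cluster of that class. In its Enpep/Hhip-led cluster Ccl2 was at 84.6 and 60.3 against 267 and 40.4 CPM. At an unadjusted p under 0.05 stood Csf1 in theca-like cells and Cxcl14 in pericyte or SMC-like cells, and no other of the 10 in these classes. Csf1 in theca-like cells measured 6.98 and 10.5 against 22.5 and 14.5 CPM, a log2 fold change of 1.05 (SE 0.35, adjusted p = 0.7186 from edgeR). Cxcl14 in pericyte or SMC-like cells measured 124 and 174 against 78.8 and 94.0 CPM, a log2 fold change of -0.80 (SE 0.28, adjusted p = 0.9985 from edgeR). In neither pair did the genotypes overlap, as for 29.5% of all genes in theca-like and 31.8% in pericyte or SMC-like cells (28.4% in endothelial-like, 28.9% in stromal-like, 23.7% in epithelial-like cells), and neither passed over all genes. With finer clusters the Cxcl14 value was 0.05, in a class that joined a Myh11-led cluster of 1099 cells to an Rgs5-led one of 1076. With coarser clusters that of Csf1 was 0.43, in a theca-like class of clusters of 4784, 4623 and 783 cells against 2299 cells in the main class. Neither is the same set of cells. Granulosa marker sums moved with both, at 1146 and 453 against 304 and 378 CPM in theca-like and 940.1 and 360 against 157 and 210 CPM in pericyte or SMC-like cells. Luteal (355.5 and 593 against 264.5 and 335 CPM) and macrophage sums (39.7 and 55.7 against 37.4 and 35.6 CPM) moved too in pericyte or SMC-like cells. So did B lymphocyte sums in both classes and eosinophil sums in theca-like cells, at 6.42 CPM or less. The theca marker Cyp17a1 was at 3249 and 1432 against 47.15 and 1208 CPM in theca-like cells, lowest in Fosl2cKO library 1. The part of these differences was not tested. The fold changes in stromal-like cells had large errors. Ccl2, at 266 and 29.9 against 106 and 27.6 CPM, differed by -1.15 (SE 0.66) on the log2 scale, with Fosl2F/F library 1 far above the others. Icam1 in stromal-like cells, 230 and 369 against 585 and 312 CPM, differed by 0.58 (SE 0.36) on the log2 scale, and Cxcl14, 392 and 418 against 214 and 839 CPM, by 0.38 (SE 0.45).

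Macrophage-like cells had 0 of 8 genes past the threshold (0.276% of all genes), with 1 at an unadjusted p under 0.05 and none called by DESeq2. That gene was Ccl7, at 1614 and 357 CPM in Fosl2F/F and 466 and 289 CPM in Fosl2cKO, a log2 fold change of -1.38 (SE 0.55, adjusted p = 0.8834 from edgeR). Ccl2, at 1548 and 340 against 498 and 362 CPM, had -1.13 (SE 0.54). The makeup by subcluster also differed. The Spp1/Arg1-led subcluster of the myeloid cells, high in Ccl7, had 45, 20, 31 and 16 cells by library, where macrophage-like cells numbered 126, 512, 265 and 187. The Mmp13-led subcluster, also high in Ccl7, had 19, 287, 75 and 71. Marker sums of other cell types also moved without overlap in macrophage-like cells, those of granulosa (487 and 334 against 130.3 and 156 CPM), luteal (451 and 653 against 235 and 138 CPM), eosinophil (116 and 71.0 against 34.8 and 40.9 CPM, 2 of 5 detected), endothelial (59.9 and 55.9 against 42.8 and 50.1 CPM), lymphatic endothelial (48.2 and 31.6 against 26.8 and 16.7 CPM) and neutrophil markers (44.1 and 43.4 against 60.4 and 61.7 CPM, 4 of 7 detected). So did those of oocyte markers, at 49.9 and 206.5 against 25.3 and 49.0 CPM. The part of the makeup and of these markers in the chemokine values was not tested. Fosl2F/F library 1 was the only high library for both genes, and without it the log2 fold changes were 0.09 and 0.35. Without Fosl2F/F library 2 they were -2.08 and -1.84, and 3 genes passed, both of these and Il1b (1.33). Il1b in these cells was 0.28 higher (SE 0.44) and Cxcl2 0.14 lower (log2 fold change -0.14, SE 0.31), within overlapping libraries (34.3% of all genes did not overlap in these cells).

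**Figure D4:**
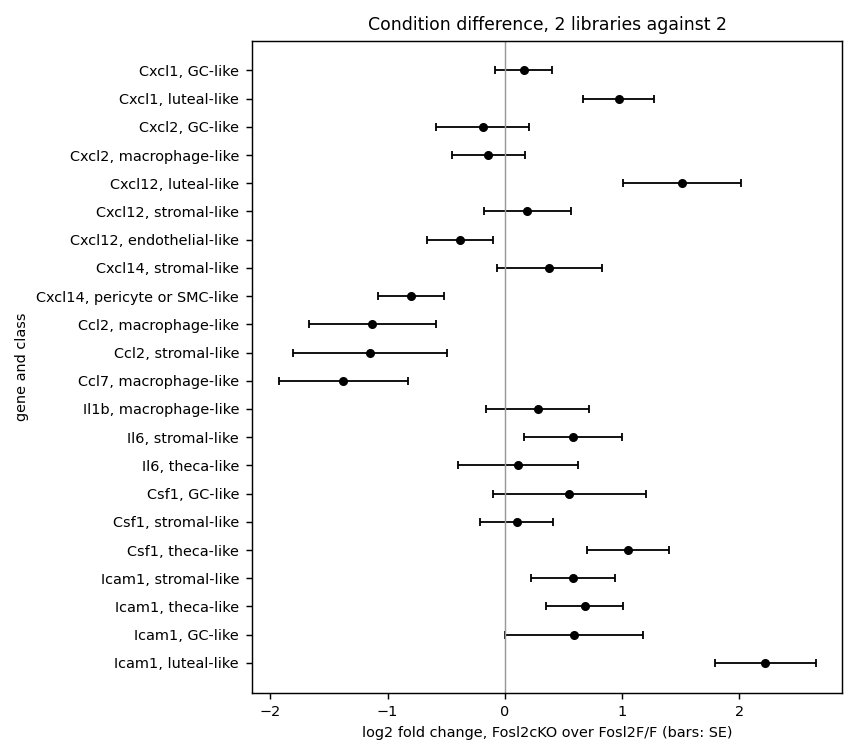
Log2 fold change of Fosl2cKO over Fosl2F/F (horizontal axis, bars are SE, 2 libraries against 2) for each gene and class in which the class held at least 10% of the gene's UMIs or the unadjusted p was under 0.05. None passed with edgeR at an adjusted p under 0.1, the 3 luteal-like values lie between 0.97 and 2.22, and Ccl7 in macrophage-like cells lies at -1.38.

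Luteal-like cells, the hormone-making cells of the corpus luteum, held 3 of the 6 differences of these genes with an unadjusted p under 0.05 in any class. With edgeR 0 of 8 genes passed (0.0156% of all genes), 3 stood at an unadjusted p under 0.05 where 11.1% of all genes did, and DESeq2 called 1, where it called 223 higher and 245 lower of 12825 genes. Icam1 measured 3.6 and 6.3 CPM in Fosl2F/F and 29.0 and 19.2 CPM in Fosl2cKO, a log2 fold change of 2.22 (SE 0.43, adjusted p = 0.2543 with edgeR and 0.004041 with DESeq2). Cxcl12 measured 27.6 and 63.2 against 92.2 and 169 CPM, a log2 fold change of 1.51 (SE 0.50, adjusted p = 0.3856 with edgeR). Cxcl1 measured 120 and 92.8 against 226 and 190 CPM, a log2 fold change of 0.97 (SE 0.30, adjusted p = 0.3687 with edgeR). Both Fosl2cKO libraries lay above both Fosl2F/F libraries for all 3 genes (47.3% of all genes did not overlap, in either direction, in this class), while Cxcl2 went the other way, at 60.5 and 46.4 against 35.9 and 35.2 CPM. These Icam1 values rest on 12, 99, 204 and 131 UMIs, in the class with the lowest mean Icam1 of the 15 ordered (14.9 CPM). Over the whole library, Icam1 measured 49.1 and 92.4 against 154 and 95.1 CPM. Cxcl2 in luteal-like cells, 36.9 to 57.0 CPM before scaling, lay below that of NK or T-like cells (72.0 to 331 CPM).

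The luteal-like cells of the genotypes were also not the same cells. The class was made of 2 clusters, and the one led by Akr1c18 and Ptgfr held 64.8% and 27.9% of its cells in Fosl2F/F but 4.59% and 10.8% in Fosl2cKO. Akr1c18, the enzyme that degrades progesterone as a corpus luteum regresses, measured 2581 and 475 against 11.1 and 0.31 CPM in the class, and the sum of 7 luteal markers 18287 and 14438 against 7625 and 9948 CPM. The summed level of 10 genes of the response to tissue dissociation was 5926 and 8132 against 11626 and 14133 CPM, and that of 10 NF-kB response genes 1709 and 1505 against 2147 and 2209 CPM. Macrophage marker sums were 17.5 to 39.4 CPM in all 4 libraries and did not separate the genotypes. Those of 7 theca markers did, at 181 and 182 against 264 and 760 CPM, as did those of 7 neutrophil markers, 4 of them detected, at 69.7 and 13.5 against 0.729 and 1.09 CPM. Smaller sums that did not overlap were those of dendritic markers (15.2 and 32.4 against 32.8 and 34.3 CPM), lymphatic endothelial markers (9.88 and 15.6 against 20.3 and 18.9 CPM), stromal markers (58.4 and 60.0 against 66.3 and 62.5 CPM), NK or T markers (4.23 and 4.06 against 1.17 and 1.86 CPM) and eosinophil markers (0.565 and 0.369 against 0.146 and 0.155 CPM). The part of the dissociation response and of these markers in the chemokine values was not tested. The cells differed within each cluster too, since Akr1c18 was at 2553 and 2277 against 166 and 1.6 CPM in the cluster it led, and at 3345 and 4.88 against 1.85 and 0.172 CPM in the cluster led by Hsd17b7. In the cluster led by Hsd17b7, Icam1 was at 0 and 5.73 CPM against 30.4 and 17.9 CPM, the 0 allowing up to 23.6 CPM, above the lower Fosl2cKO value, and Cxcl1 at 47.2 and 38.1 against 211 and 185 CPM. In the Akr1c18-led cluster, Icam1 was at 3.51 and 7.42 against 18.2 and 43.2 CPM, on 7 and 27 UMIs in Fosl2cKO, and Cxcl1 at 116 and 287 against 583 and 347 CPM. Cxcl12 was higher in both Fosl2cKO libraries only in the Akr1c18-led cluster, at 26.4 and 11.9 against 500.4 and 435 CPM, and overlapped in the other (15.7 and 73.8 against 70.6 and 151 CPM). Cxcl2 overlapped in the Hsd17b7-led cluster, at 47.2 and 9.3 against 36.2 and 38.1 CPM, and was lower in Fosl2cKO in the Akr1c18-led cluster, at 57.4 and 181 against 49.3 and 28.8 CPM. The Fosl2F/F library 1 values of the Hsd17b7-led cluster rest on 62 cells, with 6 UMIs each of Cxcl1 and Cxcl2 and 2 of Cxcl12.

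**Figure D5:**
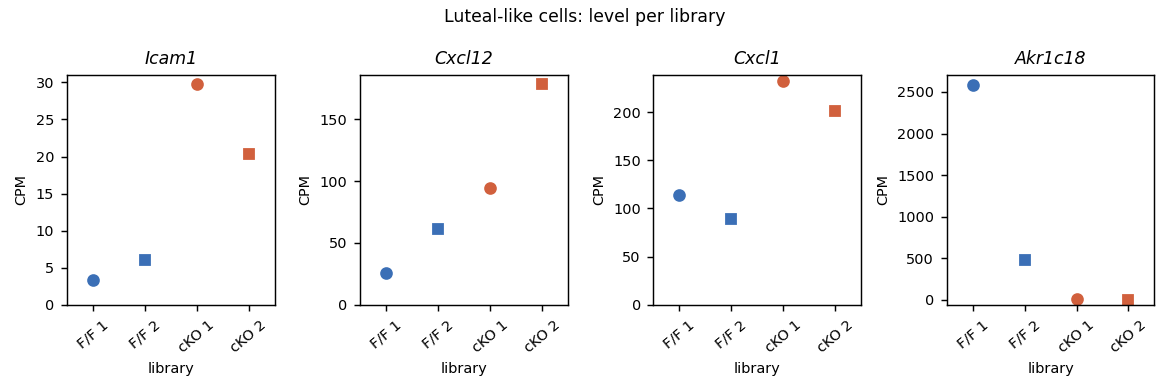
Level per library (vertical axis, CPM, 1 point per library, blue, Fosl2F/F, orange, Fosl2cKO) of Icam1, Cxcl12, Cxcl1 and the luteal regression gene Akr1c18 in luteal-like cells. Both Fosl2cKO points lie above both Fosl2F/F points for the first 3 genes and below them for Akr1c18, which is at 2581 CPM in Fosl2F/F library 1.

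Over all genes the median log2 fold change of a class lay between -0.02 and 0.01, while the median of the 10 genes that could be tested ran from -0.33 in GC-like cells to 0.56 in luteal-like cells. Of the lists around them (15 receptors, 29 further chemokines, 18 further cytokines, 5 adhesion genes, 8 further chemokine receptors, 10 NF-kB response genes and 10 dissociation response genes), 0 genes passed with edgeR in any of the 9 classes, where 0 to 4 of a list stood at an unadjusted p under 0.05. DESeq2 called 5 of them, Il18, Birc3, Zfp36 and Dusp1 in luteal-like cells and the heat shock gene Hspa1a in endothelial-like cells, where it called 23 higher and 7 lower of 11312 genes. Of the NF-kB response genes, 9 of 10 were higher in Fosl2cKO in stromal-like and macrophage-like cells, 8 of 10 in theca-like, luteal-like and pericyte or SMC-like cells, 7 of 10 in GC-like, 5 of 9 in mural-like and in endothelial-like and 3 of 10 in epithelial-like cells. Of all genes, 51% were higher in stromal-like, 49% in macrophage-like, 50.3% in theca-like, 48.6% in luteal-like, 51% in pericyte or SMC-like, 46.8% in GC-like, 49.6% in mural-like, 49.8% in endothelial-like and 48.1% in epithelial-like cells. The summed level of the list was highest in Fosl2cKO library 1 and lowest in Fosl2cKO library 2 in stromal-like (2325 and 2561 against 4687 and 2058 CPM), theca-like (1675 and 1813 against 2661 and 1661 CPM) and pericyte or SMC-like cells (2254 and 1989 against 3317 and 1645 CPM). At an unadjusted p under 0.05 stood 4 of them in luteal-like cells (11.1% of all genes), 2 in stromal-like (4.22%) and in theca-like (3.85%), 1 in macrophage-like (5.2%) and none in the other classes. Among receptors, those higher in Fosl2cKO were 7 of 13 tested in GC-like, 5 of 12 in macrophage-like, 5 of 7 in stromal-like, 5 of 6 in luteal-like and in endothelial-like, 3 of 6 in theca-like, 3 of 5 in pericyte or SMC-like, 1 of 4 in mural-like and 1 of 5 in epithelial-like cells. At an unadjusted p under 0.05 stood 1 in each of GC-like (4.7% of all genes), macrophage-like (5.2%), luteal-like (11.1%) and epithelial-like cells (3.4%).

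Whether the effect of the genotype differed between GC-like cells, which the Cre is meant for, and stromal-like cells was tested as an interaction over 17472 genes. With edgeR 0 of the 10 genes passed (0% of all genes), 1 stood at an unadjusted p under 0.05 where 3.15% of all genes did, and DESeq2 was not run for this test. Cxcl1 had a difference of 0.38 (SE 0.46) on the log2 scale, Cxcl2 of -0.31 (SE 0.35) and Icam1 of -0.05 (SE 0.31). Il1b had the smallest p at -1.68 (SE 0.66, adjusted p = 1 with edgeR), a gene with only 147 UMIs in GC-like and 51 in stromal-like cells.

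Because the classes took different shares of each library, the level of each gene was also computed with equal class shares. Il1b was then at 11.7 and 14.5 CPM in Fosl2F/F and 15.3 and 17.1 CPM in Fosl2cKO, without overlap of the genotypes, which held for 1 of the 10 genes and for 32.7% of all genes with a UMI in every library. It had a log2 difference of 0.32 (two-sided exact permutation test, p = 0.33, the smallest p that 2 against 2 can give). Without equal shares it was at 11.1 and 11.6 against 21.9 and 15.6 CPM, a log2 difference of 0.71, which equal shares lowered. The shares made equal were those of UMIs. Macrophage-like cells held 1.113% and 1.455% of all UMIs in Fosl2F/F and 2.915% and 1.648% in Fosl2cKO. Dendritic-like cells held 0.806% and 0.5875% against 1.045% and 0.714%. Icam1 was at 62.9 and 92.6 against 157 and 82.7 CPM, a difference of 0.58, and Cxcl1 at 174 and 206 against 277 and 179 CPM, a difference of 0.23, both with overlap (exact p = 0.667). For the other 7 genes the log2 differences lay between -0.90 and 0.32, also with overlap.

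The genes most like the others in profile, over the 15 classes as Pearson r of mean log2(CPM + 1), were Cinp, Fastk and As3mt for Cxcl1 (0.890 to 0.855), Fgr, F630040K05Rik and Adam8 for Cxcl2 (0.904 to 0.897), and Fam13c, Pitpnm2 and Sparc for Cxcl12 (0.877 to 0.849). For Ccl2 they were Gm17268, Rnf150 and Prdx5 (0.933 to 0.870), for Ccl7 Lipa, Pdxk and Plin2 (0.919 to 0.889), for Il6 Gfra2, Fap and Plcl1 (0.907 to 0.886), for Csf1 Itpripl2 and Ifitm2 (0.869 and 0.861), and for Icam1 Ap1s2, Svil and Washc4 (0.855 to 0.841). The classes share libraries and depths, so these values describe the profiles and carry no p.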

How the data were processed

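Droplet libraries of whole ovaries (Chromium Single Cell 3′ v3) were used as the authors deposited them, as UMI counts per gene and barcode (GRCm38, mm10), summed by Cell Ranger per the labels, which also list Seurat 4.1.0. The methods name CellBender for free RNA, and the sources used here do not say whether the deposited counts are those it corrected. The lowest count of any barcode was 500 UMIs. Counting error only is covered by floors of 3 counts.

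Following the study's filters, a cell needed more than 1000 UMIs from 500 genes or more, with mitochondrial UMIs below 10% and hemoglobin UMIs below 0.1%. Likely doublets were removed by Scrublet score (scanpy 1.11.5) at 0.8% of the cells per 1000 cells of a library. That took 5.74 to 7.01% in 3 libraries and 19.4% in Fosl2F/F library 2. Counts were normalised by SCTransform (sctransform 0.4.2), integrated (Seurat 5.3.0, 3000 features, 30 dimensions) and clustered at resolution 0.8, GC-like and myeloid cells again at 0.5. The 10 genes and 81 list genes in all were left out of the features. Clusters were named where the mean scaled marker level was at least 0.2, led by 0.1 and rested on 3 markers, and GC-like and myeloid subclusters only where a marker was also among the 10 leading genes.

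Class sums were tested with edgeR 4.0.16 (filterByExpr, TMM, quasi-likelihood, Benjamini-Hochberg over all genes), with DESeq2 1.42.0 as an alternative, after tests on simulated data. Genes named are the 10, their receptors, the 3 most similar profiles for each (1 of those for Csf1 is not reported here), and the 3 highest or any called of each list. Fold changes are given for classes with at least 10% of a gene's UMIs or an unadjusted p under 0.05. The members and lists were chosen with earlier results of these data known. No paired fit was a main fit because the libraries share only a number.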

Additional observations from a re-analysis of the deposited data

Results flagged for a closer look

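Effects of the genotype that pointed opposite ways in different classes, with both Fosl2cKO libraries on one side of both Fosl2F/F libraries after TMM scaling in each, were seen for 3 genes, and the difference between the classes was not tested for any of them. Cxcl2 had a log2 fold change of 0.45 in endothelial-like cells, but -0.58 in luteal-like and -0.52 in epithelial-like cells. Cxcl12 had 1.51 in luteal-like cells and -0.67 in GC-like cells. In GC-like cells only 0.528% of thinned cells had a Cxcl12 UMI, below the 1.46% of NK or T-like cells, and so did the 2.5% of epithelial-like cells with a Cxcl2 UMI lie below the 6.67% of NK or T-like cells, so both values are at background. Luteal-like cells also lay below NK or T-like cells in Cxcl2, at 36.9 to 57.0 against 72.0 to 331 CPM. For Icam1 luteal-like cells were the lowest of 15 classes, at a mean of 14.9 CPM. Endothelial-like cells, at 60.8 to 105.6 CPM of Cxcl2, overlapped NK or T-like cells and lay below their mean of 228 CPM. The luteal-like values of Cxcl2 and Icam1 and the endothelial-like value of Cxcl2 are thus not set above background either. Icam1 had 2.22 in luteal-like cells and -0.42 in macrophage-like cells. Before TMM scaling the libraries overlapped for Cxcl2 in epithelial-like cells and for Icam1 in macrophage-like cells. Over all genes tested, 31.6% did not overlap in GC-like, 47.3% in luteal-like, 34.3% in macrophage-like, 28.4% in endothelial-like and 23.7% in epithelial-like cells. None of these 3 genes passed at an adjusted p under 0.1 with edgeR, and the luteal-like cells of the genotypes differed in Akr1c18 and in the makeup of their clusters as described. With 2 libraries in a group no library could be tested as an outlier.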

How the results depend on the processing

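An adjusted p under 0.05 with no minimum fold could add no gene, since the lowest adjusted p of the main edgeR fits was 0.2543 (Icam1 in luteal-like cells). The count of 0 genes passing held in all 9 classes without TMM, with over 2000 UMIs per cell and with stricter doublet removal. It also held with coarser or finer clusters where the class could be formed (coarser clusters gave no macrophage-like or dendritic-like class, unnamed clusters were not matched across resolutions, and a class of the same name could take in other clusters). It moved without the gene filter, to 1 in stromal-like (Ccl2), 1 in theca-like (Ccl2), 2 in luteal-like (Icam1 and Cxcl12) and 1 in macrophage-like cells (Ccl7), and with DESeq2 to 1 in luteal-like cells (Icam1). Leaving out 1 library at a time gave 0 to 1 in GC-like, 0 to 2 in mural-like, 0 to 2 in stromal-like, 0 to 1 in theca-like and 0 to 3 in macrophage-like cells, and the lone library left is then assumed to vary like the pair of the other group. Those calls came without Fosl2F/F library 2 (macrophage-like Ccl2 -1.84, Ccl7 -2.08 and Il1b 1.33), without Fosl2cKO library 1 (stromal-like Ccl2 -2.45 and Ccl7 -2.90) and without Fosl2cKO library 2 (GC-like Icam1 1.19, mural-like Csf1 and Icam1, stromal-like Il6 1.18, theca-like Ccl2 1.93), and the cause was not tested.

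The sign turned for Fosl2 in mural-like cells without TMM (0.04) and for the GC-like minus stromal-like difference of Icam1 with stricter doublet removal (0.01). It also turned for Cxcl14 in pericyte or SMC-like cells with finer clusters (0.05), where the class took in a Myh11-led cluster. The share of Ccl2 from macrophage-like cells moved to 31.2% with finer clusters. Leaving out 1 library turned the sign of log2 fold changes, with ranges in GC-like cells of -0.15 to 0.42 (Cxcl1), -0.95 to 0.31 (Cxcl2), -0.59 to 1.43 (Csf1) and -0.43 to 1.37 (Icam1), in mural-like cells of -0.57 to 0.39 (Fosl2), in stromal-like cells of -0.46 to 0.63 (Cxcl12), -0.94 to 1.03 (Cxcl14), -2.45 to 1.16 (Ccl2), -0.52 to 1.18 (Il6) and -0.21 to 0.33 (Csf1), in theca-like cells of -0.52 to 1.34 (Il6), and in macrophage-like cells of -0.42 to 0.22 (Cxcl2), -1.84 to 0.35 (Ccl2), -2.08 to 0.09 (Ccl7) and -0.30 to 1.33 (Il1b). For the GC-like minus stromal-like differences the ranges were -0.32 to 1.0 (Cxcl1), -0.79 to 0.25 (Cxcl2), -1.28 to 0.20 (Cxcl14), -1.40 to 1.24 (Ccl2), -0.66 to 1.42 (Ccl7), -0.33 to 1.04 (Csf1) and -0.43 to 0.29 (Icam1). At equal class shares they were -0.08 to 0.55 (Cxcl1), -0.57 to 0.11 (Cxcl2), -0.89 to 0.59 (Cxcl12), -0.14 to 0.78 (Cxcl14), -1.44 to 0.49 (Ccl2), -1.85 to 0.06 (Ccl7), -0.39 to 0.99 (Il6) and -0.12 to 0.74 (Csf1). Leaving out 1 library also turned the sign of other fold changes named above. In mural-like cells the ranges were -2.06 to 1.77 (Csf1) and -0.43 to 1.57 (Icam1). For Ccl7 in stromal-like cells the range was -2.90 to 0.51, and for Ccl2 in theca-like cells -0.64 to 1.93. The luteal-like values kept their sign, at 1.90 to 2.76 (Icam1), 1.01 to 2.27 (Cxcl12) and 0.81 to 1.15 (Cxcl1). Leaving out 1 library put the leading share of Cxcl12 UMIs (Abcb1b/Hao2 cluster) between 26.4% and 40.1%. That of Il1b (dendritic-like cells) lay between 53.3% and 67.3%. A mean over 4 libraries cannot move by 1 SD when 1 is left out, so a limit of 1 SD could not show a dependence on 1 library.

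The libraries share only a replicate number. With the number as a replicate block 0 genes passed in each of the 9 classes, and deviations of same-numbered libraries correlated at -0.27 (GC-like) to 0.11 (macrophage-like). The weakest signals rested on few UMIs, 0 to 24 of Ccl7 and 0 to 11 of Il6 per library in mural-like cells, where neither was tested. Over all genes DESeq2 called more than edgeR, 133 higher and 30 lower in GC-like cells (edgeR 1 and 0), 28 and 14 in mural-like (3 and 0), 33 and 14 in stromal-like (21 and 7), 35 and 4 in theca-like (12 and 2), 223 and 245 in luteal-like (2 and 0) and 6 and 3 in pericyte or SMC-like cells (0 and 0). Without TMM the median log2 fold change of all genes in luteal-like cells was 0.11, against -0.02 with it. Leaving out the S100a9-led cells was added after seeing the data.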

Other observations

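Beside the 10 genes, the S100a9-led cells held other inflammatory signals at high levels. Ccl4, a chemokine of monocytes and NK cells, measured 3395 CPM in them (2262 to 4345 by library), Ccl3 2418 CPM (365 to 4211), Ptgs2, the inducible prostaglandin synthase, 1403 CPM (782 to 2262), and Tnf 437 CPM (261 to 573). These values rest on 64 cells, with 309 UMIs of Ccl3 and 55 of Tnf.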
